A study of Mus musculus with 27 samples.

Results

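The metallothioneins are small, cysteine-rich proteins that bind zinc and copper, and the mouse genome encodes 4 of them, Mt1, Mt2, Mt3 and Mt4, side by side on chromosome 8. The genes described here are those 4, chosen by their symbol among the array's probes, out of 28507 genes on the array. They were read through 6 probes of 41174. The arrays compared the esophagus of mice at different ages and with different genotypes of the transcription factor Nrf2 (gene Nfe2l2), which drives antioxidant genes, and of Keap1, the adaptor protein that marks Nrf2 for degradation. On each of 27 two-colour arrays the RNA of 1 esophagus was labelled with Cy5 and a universal mouse reference, pooled RNA of cell lines, with Cy3. A value below is the log2 ratio of Cy5 to Cy3 after background correction and loess, so it compares 1 gene between samples and not 1 gene with another. There were 9 groups of 3 mice each, all on the C57BL/6J background. Wild-type whole esophagus was taken at embryonic days 11.5 (E11.5) and 15.5 (E15.5) and at postnatal days 0 (P0) and 7 (P7). At P7 whole esophagus was also taken from mice lacking Nrf2 (Nrf2-/-), Keap1 (Keap1-/-) or both (Nrf2-/-Keap1-/-). Wild-type and Nrf2-/- esophageal epithelium was taken from adults 8 weeks old. The adult samples were thus epithelium and the P7 samples whole esophagus, so that age and tissue cannot be told apart between them.

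Mt1 and Mt2 are made in most tissues. They buffer zinc and copper, take up cadmium, and are switched on by metals through the zinc-sensing factor Mtf1, which binds metal response elements, and also by glucocorticoids, by cytokines of the acute phase and by oxidants. Mt3 is best known from the brain, and Mt4 from the differentiating layers of stratified squamous epithelia such as skin, tongue and the lining of the upper gut.

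Mt1 had a bright probe, A_51_P294979, spotted 10 times, at chr8:96704011-96704070 (mm9), and a dim one, A_52_P423810, at chr8:96703844-96703903, which the older array annotation names Mt1 and the newer one gives only as a transcript of the locus. Mt2 had the probe A_51_P246317 at chr8:96697371-96697430, Mt3 the probe A_52_P320971 at chr8:96677927-96677986, and Mt4 the probes A_51_P424275 and A_51_P424272, which share 44 of 60 bases. Either Mt4 probe matched 539 bases of genome with its 60 bases, so it spans a splice junction and reads spliced RNA. The probe sequences of Mt1 and Mt4 are shown because the results turn on whether relatives could share signal. They run 5′ to 3′, with the bases that the Mt4 probes share in capitals.
Mt1 A_51_P294979: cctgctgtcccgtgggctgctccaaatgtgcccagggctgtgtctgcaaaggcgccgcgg
Mt4 A_51_P424275: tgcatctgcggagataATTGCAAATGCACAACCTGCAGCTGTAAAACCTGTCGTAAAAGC
Mt4 A_51_P424272: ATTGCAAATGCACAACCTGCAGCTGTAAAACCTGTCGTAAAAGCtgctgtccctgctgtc
Between probes of different metallothioneins the longest run of identical bases was 10, between the bright Mt1 probe and Mt4 A_51_P424272, and the others shared 5 to 8. Probes were compared with probes only and not with the whole transcripts of the relatives. These runs thus cannot show whether relatives shared signal. The pair of Mt4 probes is one measurement made from overlapping sequence and not 2 independent ones.

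The stretch of 250 bases before the annotated start (RefSeq, GRCm38.p6) is given for Mt2 and Mt4, since both genes moved strongly. The Mt1 start in that table lies inside the annotated gene, and its window is not used here. Capitals mark the core of the metal response element, TGCACNC or TGCGCNC, and the core of the antioxidant response element, TGACNNNGC, which Nrf2 binds, on either strand.
Mt2, chr8:94172368-94172617, plus strand: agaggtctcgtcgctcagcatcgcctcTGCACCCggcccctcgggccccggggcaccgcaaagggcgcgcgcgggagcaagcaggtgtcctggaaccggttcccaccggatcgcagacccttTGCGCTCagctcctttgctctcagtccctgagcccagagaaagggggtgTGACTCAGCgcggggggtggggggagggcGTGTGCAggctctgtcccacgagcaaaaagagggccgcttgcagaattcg
Mt4, chr8:94136954-94137203, plus strand: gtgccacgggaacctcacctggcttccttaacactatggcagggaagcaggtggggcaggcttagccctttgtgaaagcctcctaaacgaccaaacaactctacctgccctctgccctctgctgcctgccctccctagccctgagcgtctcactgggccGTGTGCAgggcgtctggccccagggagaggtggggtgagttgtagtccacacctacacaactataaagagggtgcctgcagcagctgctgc
The Mt2 stretch held 3 metal response cores, at 223, 128 and 50 bases before the start, and 1 antioxidant core at 79 bases. The Mt4 stretch held 1 metal response core, at 91 bases, and no antioxidant core. The Mt3 stretch held neither. Of 32851 such windows in the table, 21.4% held at least 1 metal response core, 1.26% held 3 or more, and 10.2% held an antioxidant core. These are matches of letters in a window and say nothing about binding.

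All 27 arrays gave signal, with 58.86% to 69.33% of spots well above background in Cy5, and no metallothionein spot was saturated. The deleted gene Nfe2l2 changed by -3.63 (log2, SE 0.13) from wild type to Nrf2-/- at P7, with an adjusted p (limma, Benjamini-Hochberg) of 2.4e-07, and by -3.86 (SE 0.13) in Nrf2-/-Keap1-/-. The Keap1 signal did not separate Keap1-/- from wild type (-0.45, SE 0.22, adjusted p = 0.145), while Nqo1, a quinone reductase and classical Nrf2 target, was higher in Keap1-/- by 4.89 (SE 0.48). The Keap1-/- arrays sat alone on 1 slide and scan day, and were read with a newer version of the image analysis software than all other P7 arrays. Genotype, slide, scan day and software thus cannot be told apart for them at P7. The wild-type P0 and P7 arrays likewise shared no slide with any other group. Every comparison with wild type at P0 or P7 therefore also runs with slide. Their median Cy3 intensity was 114.8 to 147.2 against 222.6 to 385.7 elsewhere. The array labelled E11.5 replicate 3 correlated at 0.98 and 0.976 with E15.5 replicates 2 and 3 but at 0.832 and 0.775 with the other E11.5 arrays, and E15.5 replicate 1 at 0.957 and 0.927 with E11.5 replicates 1 and 2 but at 0.804 and 0.814 with the other E15.5 arrays. The labels were kept, and some changes of the members that touch these ages are given also without this pair of arrays. The F-tests over the wild-type ages include the pair.

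Loss of Keap1 came with a higher level of every metallothionein at P7. Against wild type, Mt4 was 18.6-fold, Mt2 12.2-fold, Mt1 5.17-fold and Mt3 3.8-fold higher. With Nrf2 deleted as well none of the 4 passed the test, where 0.426% of all genes tested did. Nor did any in Nrf2-/- alone, where 0.0156% of all genes did.

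For Mt2 the log2 ratios of the Keap1-/- esophagi were 2.38, 1.68 and 1.61, and those of wild type -1.09, -1.61 and -2.46. In Nrf2-/-Keap1-/- they were -2.40, -1.86 and -1.81, and in Nrf2-/- -1.88, -2.16 and -2.20. Every Keap1-/- esophagus lay above every other P7 esophagus, and the other 3 genotypes overlapped. Here and below, the share of all genes whose groups were separated in this way was not counted. The change from wild type to Keap1-/- was 3.61 (log2, SE 0.32, 95% interval 2.9 to 4.32, adjusted p = 2.08e-05). Mt1 had the same order, with 0.12, 0.43 and 0.73 in Keap1-/- against -1.48, -1.87 and -2.48 in wild type. Its values were -2.13, -2.38 and -2.18 in Nrf2-/-, and -2.29, -1.98 and -2.22 in Nrf2-/-Keap1-/-. The Keap1-/- values were again apart from all others, and the change was 2.37 (SE 0.23, interval 1.86 to 2.88, adjusted p = 3.69e-05). Either Mt1 probe rose, the bright one from a group mean of -2.53 to 0.08 and the dim one from -1.36 to 0.77.

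Mt3 had the smallest change of the 4 in log2 units and the smallest spread. Its ratios in Keap1-/- were 3.16, 2.69 and 3.07, against 1.16, 1.04 and 0.94 in wild type, 0.89, 1.04 and 1.08 in Nrf2-/-, and 0.99, 1.29 and 1.18 in Nrf2-/-Keap1-/-. The Keap1-/- esophagi stood well clear and the other genotypes overlapped. The change was 1.93 (SE 0.13, interval 1.63 to 2.22, adjusted p = 3.19e-06). The Mt3 probe was well above background on all 27 arrays, at 394 to 549.9 units of Cy5 in wild type at P7 and 2710 to 4040 in Keap1-/-.

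Mt4 was the gene with the largest change and the least even one. Its ratios were 6.49, 6.22 and 6.61 in Keap1-/-, but 2.82, 3.24 and 0.60 in wild type, 2.70, 0.62 and -0.02 in Nrf2-/-, and -0.18, 4.23 and 1.61 in Nrf2-/-Keap1-/-. The Keap1-/- values were close together and above all others, whereas each of the other genotypes held 1 or more arrays with a ratio under 1 and 1 or more with a ratio over 2.5. The change from wild type was 4.22 (SE 1.06, interval 1.89 to 6.55, adjusted p = 0.0112). Without wild-type P7 replicate 3 it was 3.41 (adjusted p = 0.0436). On the deposited ratios it was 2.83 (adjusted p = 0.101), and on the scanner's processed signals 2.83 (adjusted p = 0.0956), and the call was lost in both.

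**Figure D1:**
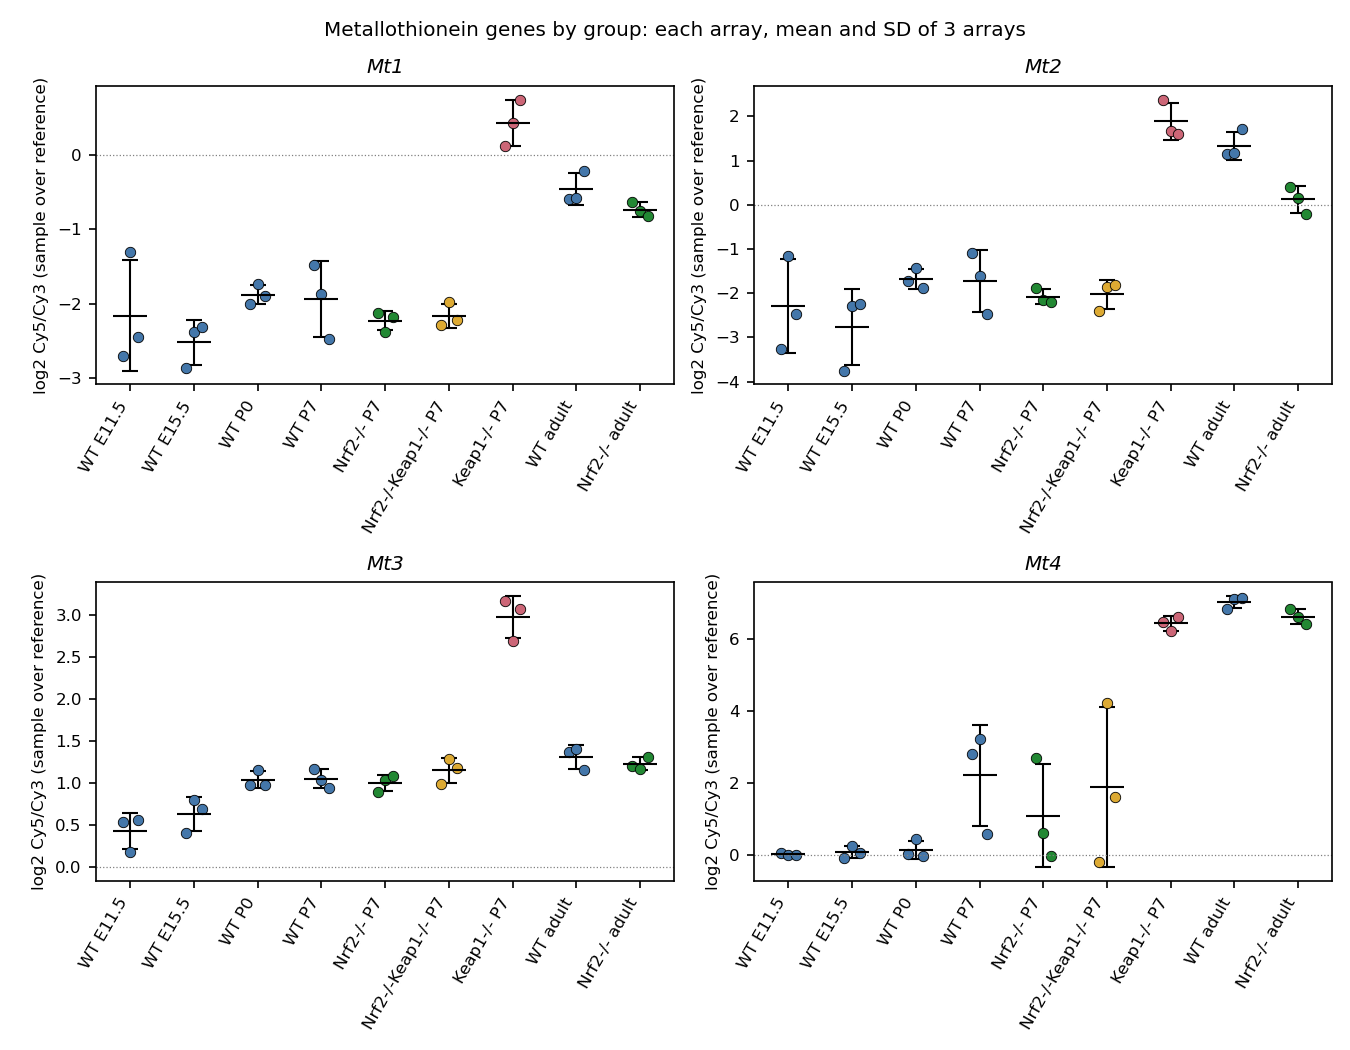
Log2 Cy5/Cy3 of Mt1, Mt2, Mt3 and Mt4 in each of the 27 arrays (points), with the mean and SD of the 3 arrays of each of 9 groups (bars). The Keap1-/- esophagi at P7 lie above every other P7 esophagus for all 4 genes, and Mt1, Mt2 and Mt4 are also high in adult epithelium, where Mt3 is not. The share of all genes separated in this way was not counted.

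All 4 genes were called higher in Keap1-/- than in wild type, where 15.4% of the 19244 genes tested were called higher and 33.3% were called in either direction. Against Nrf2-/-Keap1-/-, where 33.4% were called (15.1% higher), all 4 were again called. The changes there were 2.59 (SE 0.23) for Mt1, 3.91 (SE 0.32) for Mt2, 1.82 (SE 0.13) for Mt3 and 4.55 (SE 1.06) for Mt4, with adjusted p values of 2.09e-05, 1.21e-05, 5.29e-06 and 0.00751. Both comparisons share the Keap1-/- arrays. An F-test over the 4 genotypes called all 4 members (adjusted p = 3.32e-05 for Mt1, 1.88e-05 for Mt2, 5.06e-06 for Mt3 and 0.00973 for Mt4), where 33.8% of genes were called. Whether the Keap1 effect depended on Nrf2 was tested as an interaction, the change with loss of Keap1 in mice with Nrf2 less the change in Nrf2-/- mice, for which 15.1% of genes were called (7.13% with a positive difference). It was 2.31 (SE 0.33, adjusted p = 0.00118) for Mt1, 3.55 (SE 0.45, adjusted p = 0.000645) for Mt2 and 1.78 (SE 0.19, adjusted p = 0.00019) for Mt3. For Mt4 it was 3.43 (SE 1.49, adjusted p = 0.148) and did not pass.

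Deleting Nrf2 alone gave no called member at P7, where 0.0156% of genes were called (0.0052% higher). The changes from wild type were -0.29 for Mt1 (95% interval -0.79 to 0.22) and -0.36 for Mt2 (-1.07 to 0.35). They were -0.05 for Mt3 (-0.34 to 0.25) and -1.12 for Mt4 (-3.45 to 1.21). In Nrf2-/-Keap1-/- against wild type, where 0.426% were called, the intervals were -0.73 to 0.28 for Mt1, -1.01 to 0.41 for Mt2, -0.19 to 0.4 for Mt3 and -2.66 to 2 for Mt4. Against Nrf2-/-, where 0 genes of 19244 were called by limma and 1212 had an unadjusted p of 0.05 or less, the double mutant differed by 0.06 (Mt1), 0.06 (Mt2), 0.15 (Mt3) and 0.79 (Mt4). For Mt1, Mt2 and Mt3 the upper bounds in Nrf2-/- and Nrf2-/-Keap1-/- lay below the lower bounds in Keap1-/-, while for Mt4 the intervals of Keap1-/- and Nrf2-/-Keap1-/- met.

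**Figure D2:**
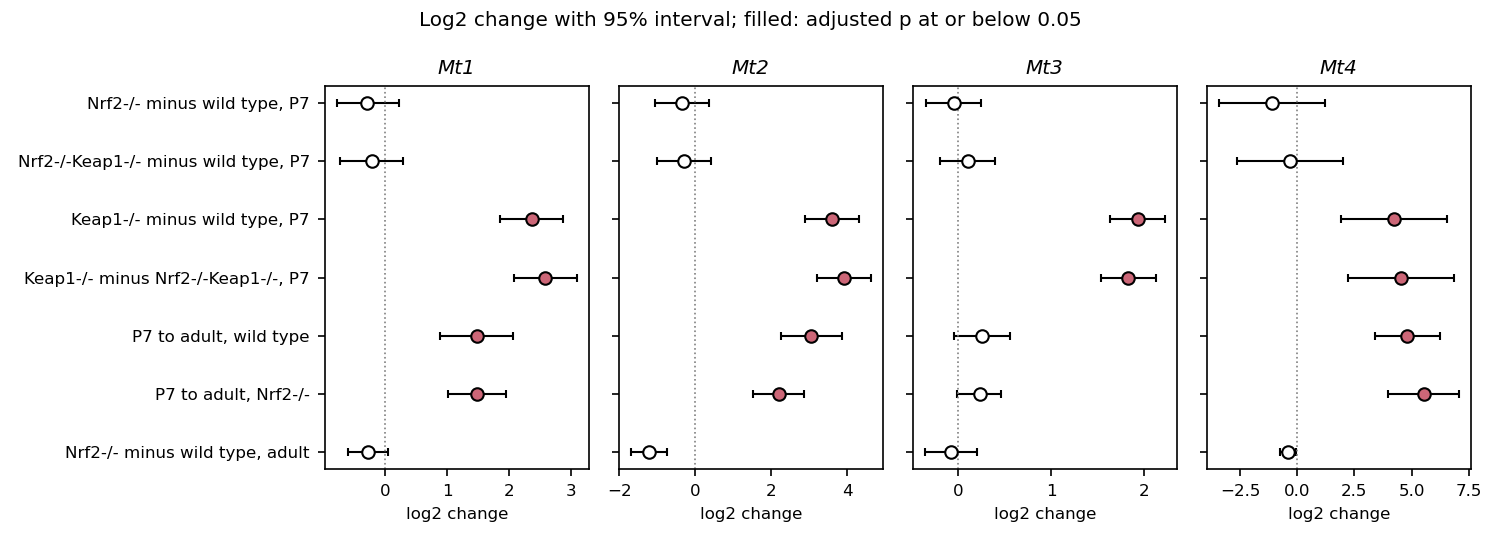
Log2 change of each gene in 7 comparisons, with its 95% interval from limma; each panel has its own horizontal scale. Filled points had an adjusted p of 0.05 or less: all 4 genes in both comparisons of Keap1-/-, and Mt1, Mt2 and Mt4 from P7 to adult in wild type and in Nrf2-/-.

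The intensities behind these ratios show where the ratio falls short. The Mt4 probe A_51_P424275 gave 70.02 to 294.5 units of Cy5 in wild type at P7, 19900 to 45590 in Keap1-/- and 53190 to 219600 in wild-type adults. The reference was the same RNA on every array, yet the Cy3 signal of this probe was 46.39 to 109.5 units on the 18 arrays outside the Keap1-/- and adult groups, 696.4 to 932.5 on the Keap1-/- arrays and 2345 to 2838 on the adult arrays. Cy3 thus moved with Cy5 at this spot, and the cause was not tested. With the Cy5 intensities alone (normalized between arrays, an alternative added after the data were seen), the Mt4 change with loss of Keap1 was 7.47 (adjusted p = 0.000662) in place of 4.22, and that from P7 to adult 8.75 (adjusted p = 9.45e-05) in place of 4.81. For Mt2 it ran the other way. Its Cy3 signal was 197300 to 365600 on the arrays other than those groups, 71260 to 97560 on the Keap1-/- arrays and 122400 to 165600 on the adult ones. These intensities are as scanned. The median Cy3 of all spots was also lower on the Keap1-/- arrays, at 114.8 to 147.2 against 222.6 to 385.7 elsewhere. The Cy5 change of Mt2 with loss of Keap1 was 2.8 (limma adjusted p = 7.8e-05). That of Mt1 was 2.02 (adjusted p = 0.000181) and that of Mt3 2.44 (adjusted p = 1.15e-06). All 4 genes kept their call and direction with Cy5 alone, and their order by size of change differed in that Mt3 passed Mt1.

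**Figure D3:**
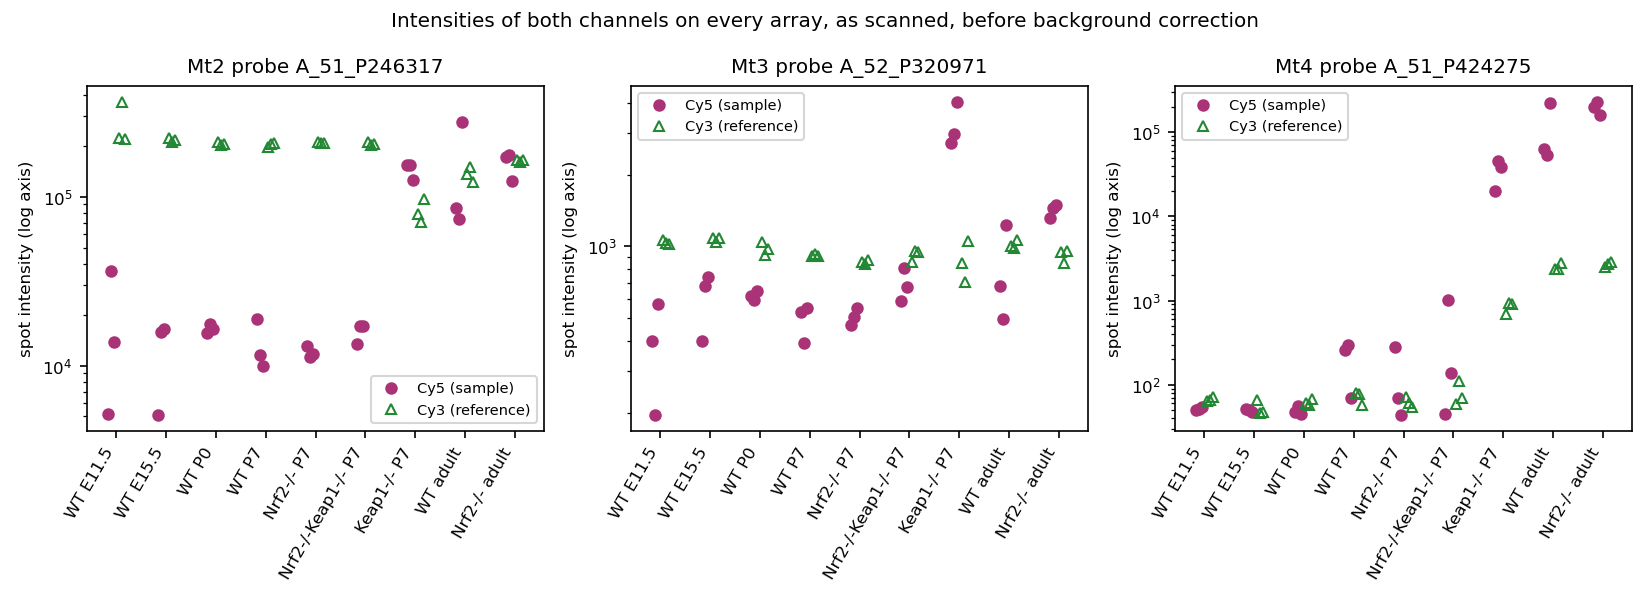
Spot intensity on a log axis in Cy5 (sample, filled circles) and Cy3 (reference, open triangles) on each array, for the probes of Mt2, Mt3 and the Mt4 probe A_51_P424275. The reference signal of Mt4 rises from at most 109.5 to between 696.4 and 2838 where Cy5 is high, and that of Mt2 is lower on the Keap1-/- and adult arrays than on the others. Intensities are as scanned, and the median Cy3 of all spots was also lower on the Keap1-/- arrays.

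At P7 Mt4 ran with some of the suprabasal and cornified markers and not with others. Over the 3 P7 genotypes other than Keap1-/-, the esophagi with the lowest Mt4, at -0.18 (Nrf2-/-Keap1-/- replicate 1) and -0.02 (Nrf2-/- replicate 3), had log2 ratios of 0.24 and -0.04 for Flg, which encodes filaggrin of the granular layer. Those with the highest Mt4, at 4.23 (Nrf2-/-Keap1-/- replicate 2), 3.24 (wild type replicate 2) and 2.82 (wild type replicate 1), had Flg at 3.63, 3.35 and 2.96, and Nrf2-/- replicate 1, at 2.70, had it at 3.89. Krt10, a suprabasal keratin, was 0.92 and 0.85 in the first pair and 3.70, 3.73 and 3.34 in the 3 highest. Wild type replicate 3, at 0.60 for Mt4, had 0.61 for Flg and 0.88 for Krt10. Krt13, the main keratin of the esophageal suprabasal layer, spanned only 4.25 to 5.16 on these 9 arrays and gave no such order. These genes were picked from the marker list after their values were seen, and the whole list was mixed. Over the 9 arrays, which share the reference, the Pearson correlation with Mt4 was 0.97 for Krt1, 0.95 for Flg, 0.93 for Krt10 and 0.9 for Rptn. It was 0.54 for each of Ivl, Lor and Sprr3, 0.34 for Cnfn, 0.02 for Krt4, -0.09 for Krt13 and -0.24 for Tgm3. Mt4 thus differed among mice of the same age and genotype across a wider range than the means of these genotypes did, and in bulk tissue fewer cells of a type and less RNA per cell cannot be told apart.

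The Keap1-/- esophagi did not follow that order. Replicate 1 had Flg at 0.04 and Krt10 at 0.72, near the lowest of all P7 esophagi, with Mt4 at 6.49. Replicates 2 and 3 had Flg at 3.48 and 3.53 with Mt4 at 6.22 and 6.61. Of the 11 suprabasal and cornified markers, 2 were called higher and 1 lower in Keap1-/-: Tgm3, a transglutaminase (0.88), and Cnfn, cornifelin (0.74), rose, and Ivl, involucrin, fell by 0.97 on the log2 scale. Their median change was -0.11, against -0.025 over all genes, and the median log2 ratio of the list was 4.29 to 5.31 per array in Keap1-/- and 4.23 to 4.84 in wild type. Other cells moved too, where 33.3% of all genes were called. Of 7 mesenchymal markers 6 were called lower (Lum -2.69, Col1a1 -1.59). The median log2 ratio of that list was -0.32 to 0.28 per array in Keap1-/- and 1.34 to 1.66 in wild type. Of 5 smooth muscle markers 4 were called lower and 1 higher, with per-array medians of 3.75 to 4.65 against 3.49 to 4.12. Of 4 immune markers 3 were called lower. Called higher were 2 of 4 airway and cilia, 1 of 5 neuron, 1 of 3 red cell and 1 of 7 basal squamous markers. Of 6 striated muscle markers 1 was called higher and 1 lower. Their part in the metallothionein result was not tested.

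**Figure D4:**
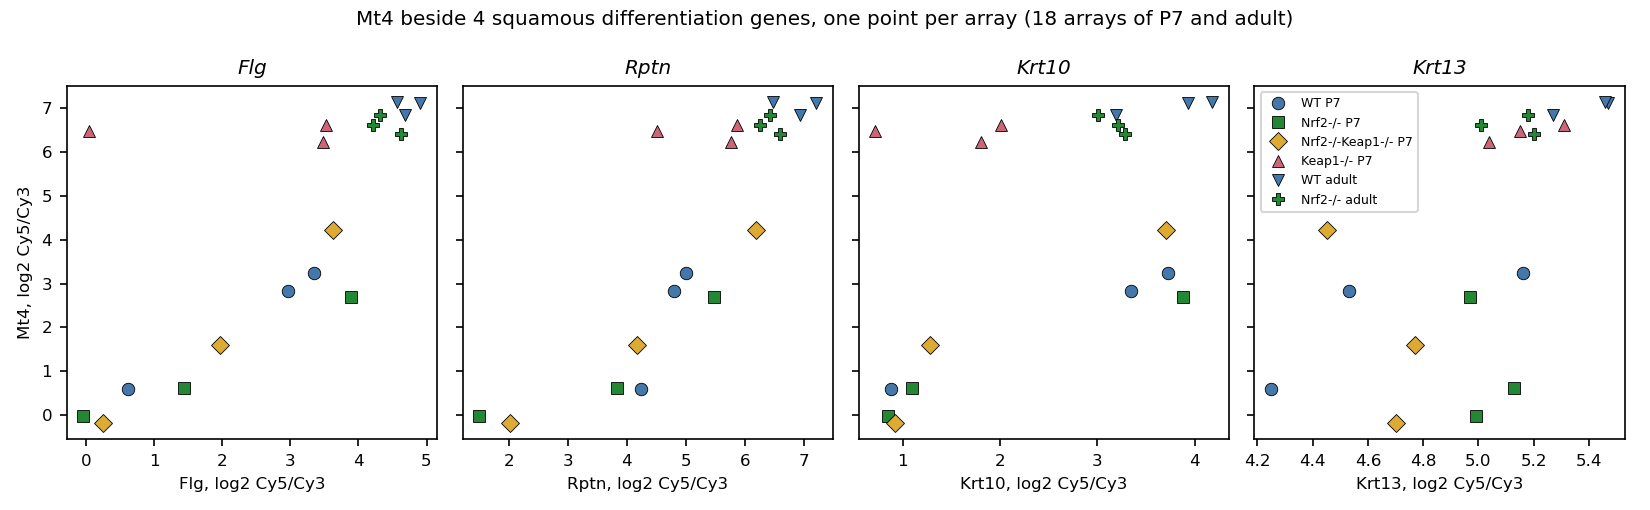
Log2 Cy5/Cy3 of Mt4 (vertical axis) against that of Flg, Rptn, Krt10 and Krt13 (horizontal axes), 1 point per array for the 18 arrays of P7 and adults, marked by group. On the 9 arrays of wild type, Nrf2-/- and Nrf2-/-Keap1-/- at P7, high Mt4 goes with high Flg, Rptn and Krt10 but not with high Krt13, while Mt4 of the 3 Keap1-/- arrays is between 6.22 and 6.61 whatever their Flg. The 4 genes plotted were picked from 11 markers after their values were seen.

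Of the genes that handle metals, 5 of 19 zinc genes and 5 of 14 copper genes were called with loss of Keap1, in either direction, where 33.3% of all genes tested were. Of the 25 genes of zinc handling, 19 were tested between Keap1-/- and wild type, and 1 was called higher and 4 lower, with a median change of 0.05. The 1 that rose was Slc30a1 (0.53, SE 0.17, adjusted p = 0.0357), the zinc exporter of the plasma membrane and, like Mt1 and Mt2, a textbook target of Mtf1. The 4 that fell were the zinc transporters Slc39a10 (-0.73), Slc39a8 (-0.52), Slc30a5 (-0.41) and Slc30a7 (-0.36). Mtf1 itself changed by 0.14 (SE 0.11, adjusted p = 0.34). Of 14 copper genes tested, 3 were called higher, the copper pump Atp7a (1.1), the copper transporter Slc31a2 (0.96) and the copper chaperone Cox17 (0.56), and 2 lower, Commd1 (-0.68) and the copper importer Slc31a1 (-0.52). None of the copper or zinc genes was called between Nrf2-/- and wild type at P7, where only 0.0156% of all genes tested were.

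All 12 of the Nrf2 targets listed were called higher in Keap1-/-, with a median change of 3.86. The largest changes were those of Gclc (6.04), which makes glutathione's precursor, the glutathione transferase Gstm1 (5.97) and the cystine importer Slc7a11 (5.71), followed by Akr1b8 (5.55), Nqo1 (4.89) and Srxn1 (4.37). Against the same background of 33.3% of all genes, the other lists were mixed in direction. Of 11 glucocorticoid-related genes, 5 were called higher, Fkbp5 (1.36), Cebpd (1.17), Klf9 (1.04), Tsc22d3 (0.86) and Ddit4 (0.53), and the glucocorticoid receptor Nr3c1 was called lower (-0.76). Of 11 acute phase and cytokine genes, Stat3 (1.6), Orm1 (0.91) and Socs3 (0.38) were called higher and Tnf (-1.05) lower. Among 8 genes on the flanks of the metallothionein locus, Nup93 was called higher (0.56) and Herpud1 (-0.93) and Nudt21 (-0.44) lower.

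From P7 to adult in wild type, Mt4 rose 28.1-fold, Mt2 8.31-fold and Mt1 2.79-fold, and Mt3 did not pass the test. Mt2 had 1.14, 1.16 and 1.71 in adult epithelium against -1.09, -1.61 and -2.46 at P7, with no overlap, a change of 3.05 (log2, SE 0.34, adjusted p = 0.000463). Mt1 had -0.59, -0.58 and -0.22 in adults against -1.48, -1.87 and -2.48, a change of 1.48 (SE 0.25, adjusted p = 0.00309). By the bright Mt1 probe alone it was 2.33 (adjusted p = 0.000201). The dim Mt1 probe rose less, from a group mean of -1.36 (-1.9 to -0.89) at P7 to -0.72 (-0.92 to -0.42) in adults, and its arrays overlapped. Mt4 had 6.84, 7.12 and 7.14 against 2.82, 3.24 and 0.60, a change of 4.81 (SE 0.61, adjusted p = 0.000803), and of 4 (adjusted p = 5.86e-05) without P7 replicate 3. Mt3 had 1.37, 1.40 and 1.15 against 1.16, 1.04 and 0.94, which overlap, a change of 0.26 (SE 0.13, adjusted p = 0.143). On the deposited ratios the Mt3 change was 0.56 (adjusted p = 0.0405), and with each spot's own local background -0.28 (adjusted p = 0.504).

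Of the 4 members 3 were thus called higher, where 19.9% of 18177 genes were called higher and 42.9% in either direction. The adults came from 2 scan days and shared no slide with the P7 arrays. Within the scan day that held all 3 P7 arrays and 2 of the adult arrays, the differences were 1.36 for Mt1, 2.87 for Mt2, 0.34 for Mt3 and 4.76 for Mt4. All 7 mesenchymal and all 6 striated muscle markers were called lower in the adult samples, with median changes of -1.84 and -3.98, and 6 of 11 suprabasal and cornified markers higher, led by Flg (2.42) and Rptn (2.19). Also called lower were 5 of 5 neuron, 4 of 4 endothelium, 3 of 4 glia, 3 of 5 smooth muscle, 2 of 2 red cell and 1 of 4 immune markers. Those called higher included 2 of 2 airway and cilia and 2 of 7 basal squamous markers. Their part in the metallothionein changes was not tested.

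In Nrf2-/- mice the same 3 genes were called from P7 to adult, where 27% of 19578 genes were called higher and 55% in either direction. The changes were 1.49 (SE 0.21, adjusted p = 0.000137) for Mt1, 2.2 (SE 0.3, adjusted p = 0.000106) for Mt2 and 5.53 (SE 0.71, adjusted p = 6.25e-05) for Mt4. Mt3 changed by 0.23 (SE 0.11, adjusted p = 0.0946). Whether the change differed between Nrf2-/- and wild type was tested as an interaction, for which 0.0919% of genes were called (0.0613% with a positive difference). None of the 4 passed, with -0.86 (SE 0.43, adjusted p = 0.48) for Mt2 and 0.01 (SE 0.3), -0.03 (SE 0.15) and 0.71 (SE 1) for Mt1, Mt3 and Mt4. All 3 Nrf2-/- arrays of P7 were scanned on 1 day and read with an older version of the image analysis software. All 3 of adults were scanned on other days and slides and read with a newer one. Age, slide, scan day and software thus cannot be told apart in this genotype. All 7 mesenchymal, all 5 smooth muscle and 5 of 6 striated muscle markers were called lower in the Nrf2-/- adults, with a median change of -1.96 for the mesenchymal list, and 6 of 11 suprabasal and cornified markers higher. Also called lower were 4 of 5 neuron, 4 of 4 glia, 3 of 4 endothelium and 3 of 3 red cell markers. Of 4 immune markers 2 were called lower and 1 higher, of 4 airway and cilia markers 2 lower and 2 higher, and 4 of 7 basal squamous markers were called higher. Their part in these changes was not tested.

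In adult epithelium Mt2 was lower in Nrf2-/- than in wild type on all 3 arrays, but it stayed short of the threshold. Its ratios were 0.41, 0.15 and -0.20 in Nrf2-/- and 1.14, 1.16 and 1.71 in wild type, which do not overlap. The change was -1.22 (SE 0.21, 95% interval -1.7 to -0.73, unadjusted p = 0.000414, adjusted p = 0.0656). It was called on 3 alternatives, without Nrf2-/- adult replicate 1 (-1.36, adjusted p = 0.0343), with each spot's own local background (-1.12, adjusted p = 0.0436) and after scaling between arrays (-1.16, adjusted p = 0.0376). After median centring in place of loess it was -0.43 (adjusted p = 0.46). With the scan day as a term it was -1.43, which is also the difference within the scan day that held 2 Nrf2-/- arrays and 1 wild-type array. That wild-type array was the one with the highest Mt2 (1.71). The other 2 wild-type adults were scanned on another day and read with the older image analysis software, and all 3 Nrf2-/- adults with the newer one. Genotype thus largely ran with scan day and software, and the genotypes shared no slide. Mt1 was lower in all 3 Nrf2-/- adults too, at -0.64, -0.76 and -0.83 against -0.59, -0.58 and -0.22, but by 0.28 only (adjusted p = 0.354). Mt3 changed by -0.08 (adjusted p = 0.774) and Mt4 by -0.4 (adjusted p = 0.254), or by -1.46 (adjusted p = 0.0679) after scaling between arrays. No member was called, where 0.445% of 18219 genes were. Among the lists for other cells, the median log2 ratio per array of the red cell list was 1.28 to 1.6 in Nrf2-/- and 0.66 to 0.78 in wild type, with Hba-a1 called higher (0.99, adjusted p = 0.0367), 1 of 2 tested. That of the striated muscle list was 2.09 to 3.21 and 0.85 to 2.01, with 0 of 5 called. Their part in the Mt2 difference was not tested. In the same comparison 7 of the 12 Nrf2 targets were called lower, led by Nqo1 (-3.41), Akr1b8 (-2.75), Gclc (-2.27), Gsta3 (-2.09), Gstm1 (-1.89) and Cbr3 (-1.17). None of the 19 zinc genes was called, with 0.05 for Slc30a1 and 0.16 for Mtf1, and none of 13 copper genes. Of 11 glucocorticoid-related genes Cebpd (1.93) and Tsc22d3 (1.19) were called higher.

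Before P7 the family was quieter. Mt1 had log2 ratios of -2.71, -1.31 and -2.45 at E11.5, -2.87, -2.38 and -2.32 at E15.5, and -2, -1.74 and -1.90 at P0. Mt2 had -3.27, -1.15 and -2.47, then -3.75, -2.29 and -2.24, then -1.72, -1.43 and -1.89. For both genes E11.5 replicate 2 was the highest embryo, with Mt2 at 36300 units of Cy5 against 5167 on replicate 1. An F-test over the 4 wild-type ages called neither (adjusted p = 0.427 for Mt1 and 0.35 for Mt2), where 30% of 19910 genes were called. From E15.5 to P0, where 19.7% were called, Mt1 was higher by 0.65 (SE 0.35, adjusted p = 0.225) and Mt2 by 1.08 (SE 0.56, adjusted p = 0.204). Neither passed although the values at these ages do not overlap. Without the pair of arrays that stand apart the differences were 0.47 and 0.59.

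Mt3 and Mt4 did change with age. Mt3 had 0.54, 0.18 and 0.56 at E11.5, 0.41, 0.80 and 0.69 at E15.5, and 0.98, 1.15 and 0.97 at P0, and stayed there at P7. The F-test called it (adjusted p = 0.0134), and from E11.5 to P7, where 30.1% were called (16.7% higher), it rose by 0.62 (SE 0.14, adjusted p = 0.00844), or 1.54-fold. Without the pair of arrays the rise was 0.69 (adjusted p = 0.00352). It lost its call on the deposited ratios (0.49, adjusted p = 0.0607), on the processed signals (0.49, adjusted p = 0.0615), with Cy5 alone (0.69, adjusted p = 0.0711) and after median centring (0.38, adjusted p = 0.167). Mt4 was at 0.07, 0.02 and 0.01 at E11.5, at -0.08, 0.26 and 0.05 at E15.5, and at 0.03, 0.44 and -0.02 at P0. Its probe A_51_P424275 was not well above background in Cy5 on any of these 9 arrays. The overlapping probe A_51_P424272 was on 8 of them, at 61.57 to 189.1 units of Cy5 over the 9. From E11.5 to P7 Mt4 rose by 2.18 (SE 0.52, adjusted p = 0.0107; 0.0549 in a fit of those groups alone), and by 2.17 (adjusted p = 0.0202) without the pair of arrays. From P0 to P7, where 2.42% were called (1.46% higher), the change was 2.07 (SE 0.52, adjusted p = 0.0727). Without wild-type P7 replicate 3 it was 2.88 (adjusted p = 9.58e-05), and on the deposited ratios 3.37 (adjusted p = 0.02), both of which pass. Between E11.5 and E15.5 not 1 member was called, where limma called 0% of 19910 genes (330 had an unadjusted p of 0.05 or less); without the pair of arrays 2740 genes were called, none of them a member.

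In the stretch from E15.5 to P0, where 19.7% of all genes were called (11.3% higher), 3 of 19 zinc genes were called higher and 1 lower, Slc39a4 (2.67), a zinc importer, Slc30a1 (0.97) and Slc30a7 (0.63), and Slc39a10 (-0.85). Of 14 copper genes Steap4 (2.51), a metal reductase, Slc31a2 (1.32) and Slc31a1 (0.68) were called higher. Of 12 glucocorticoid-related genes 7 were called higher and none lower, with Dusp1 (2.69), Cebpd (2.09), Klf9 (1.73), Hsd11b1 (1.66), Tsc22d3 (1.32) and Per1 (1.07) the largest, while Nr3c1 changed by 0.34 (adjusted p = 0.554). Without the pair of arrays, where 19.1% of all genes were called, the counts were 3 higher and 1 lower for zinc, 3 higher and 0 lower for copper, and 8 higher and 0 lower for the glucocorticoid-related list. From P7 to adult, where 42.9% of all genes were called, the zinc list gave 7 higher and 4 lower, with Slc30a1 at 1.38 (SE 0.17, adjusted p = 0.000672), Mtf1 at 0.45 (SE 0.12, adjusted p = 0.0176) and Slc39a4 at -3.21, and the copper list 4 higher, with Slc31a2 (1.58) and Atp7a (1.4). Slc30a1 was thus called higher from E15.5 to P0, from P7 to adult and with loss of Keap1, but it changed by 0.11 only (adjusted p = 0.654) from Nrf2-/-Keap1-/- to Keap1-/-, and by 0.42 (adjusted p = 0.245) from wild type to Nrf2-/-Keap1-/-. It was not called between Nrf2-/- and wild type at either age.

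Ordered by group mean, Mt1 and Mt2 were lowest at E15.5 (-2.52 ± 0.3 and -2.76 ± 0.86, SD, n = 3), and Mt3 and Mt4 at E11.5. The place of E15.5 for Mt2 rests on replicate 1, since without it the change from E11.5 to E15.5 was 0.03. Mt1 and Mt2 were highest in Keap1-/- at P7 (0.43 ± 0.31 and 1.89 ± 0.42). For both, the 6 groups from E11.5 to P7 other than Keap1-/- overlapped neighbour by neighbour, then came Nrf2-/- adults (-0.74 ± 0.1 and 0.12 ± 0.31) and wild-type adults (-0.46 ± 0.21 and 1.33 ± 0.32), each apart from the group below. For Mt2 the wild-type adults overlapped Keap1-/-, and for Mt1 they did not. Mt3 ran from 0.43 ± 0.21 at E11.5 to 1.31 ± 0.14 in wild-type adults, with Keap1-/- apart from all at 2.97 ± 0.25. Mt4 ran from 0.03 ± 0.03 at E11.5 to 7.03 ± 0.17 in wild-type adults, and Keap1-/- at P7 (6.44 ± 0.2) overlapped Nrf2-/- adults (6.63 ± 0.22).

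Over the 27 arrays Mt1 and Mt2 had a Pearson correlation of 0.972 with each other, Mt4 one of 0.865 with Mt1 and 0.891 with Mt2, and Mt3 one of 0.791, 0.765 and 0.646 with Mt1, Mt2 and Mt4. These arrays share the reference and the group structure, and the correlations describe the pattern over groups. Among 20946 genes measured on all arrays, the non-member genes most like Mt1 were the glutathione transferases Gstm1 (0.965) and Gstm3 (0.964), then Pgd of the pentose phosphate pathway (0.954), the citrate carrier Slc25a1 (0.951) and the hexokinase Hk1 (0.948). Most like Mt2 were Gstm1 (0.957), Mblac2 (0.954), G6pdx, the first enzyme of the pentose phosphate pathway (0.953), Gstm3 (0.953) and Ptgr1 (0.949). Most like Mt3 were Alas1, the first enzyme of heme synthesis (0.96), Spr, which makes tetrahydrobiopterin (0.953), a transcript named only by ENSMUST00000058162 (0.948), Mpst (0.945) and Srxn1 (0.939). Most like Mt4 were 2310050C09Rik (0.986), Otop2 (0.985), the epidermal lipoxygenase Aloxe3 (0.979), Tdh (0.979) and the ceramidase Acer1 (0.976).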

How the data were processed

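RNA of 27 esophagi, 3 in each of 9 groups taken from the sample labels, was hybridised in Cy5 against a reference in Cy3 on Agilent 4x44k arrays without dye swaps. Per the file headers, the scanner files hold spot mean intensities and local background intensities of both dyes, not normalized, beside processed intensities. The authors also deposited log10 ratios of Cy5 to Cy3, which are those of the image analysis software averaged per probe. The labels name Agilent Feature Extraction 9.1, while the headers name later versions.

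Mean intensities were background-corrected with limma 3.58.1 in R 4.3.3 (normexp, offset 50) and normalized by loess within each array. Spots marked as outliers were kept, and spots whose local background exceeded 5 times the array median were left out. Spots were averaged to probes and probes to genes on the log2 scale. Genes entered a fit if 3 or more of its arrays had a probe clearly over background in Cy5. Groups were compared with lmFit and eBayes over all genes tested, with Benjamini-Hochberg adjustment, and called at an adjusted p of 0.05 or less. One fit held the 4 wild-type ages to P7, one the 4 genotypes at P7, and others the P7 and adult groups compared. The study's permutation test was not run. The arrays' number limits the precision, and p-values rest on the spread within groups between arrays, 1 per mouse. They do not cover differences of slide or scan day that run with the groups.

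The 4 members and the gene lists were chosen with earlier results of these data known. Named are the members, up to 6 called genes of a list with the largest change, a few fixed regulators, and the 5 genes most like each member. The alternatives were the deposited ratios, other background, normalization, probe and filter choices, slide, scan day or replicate number as blocks, other sets of samples and each array left out. Cy5 alone, the random slide block and the dropped Mt1 probe were added after the data were seen. The steps were tested on simulated data. Of the probes, 26918 matched a RefSeq accession.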

Additional observations from a re-analysis of the deposited data

Results flagged for a closer look

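The effect of losing Keap1 differed between mice with Nrf2 and mice without it, by the test of the difference itself. The difference in effect at P7 was 2.31 (log2, SE 0.33) for Mt1, 3.55 (SE 0.45) for Mt2 and 1.78 (SE 0.19) for Mt3, with limma adjusted p values of 0.00118, 0.000645 and 0.00019. Each was called with any 1 of the 12 arrays left out, with ranges of 2.04 to 2.54, 3.18 to 3.87 and 1.68 to 1.92. The Keap1-/- arrays lay alone on their slide and scan day, and only they had the newer image analysis software at P7. Slide, scan day and software cannot be told apart from the genotype.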

How the results depend on the processing

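The higher level of Mt1, Mt2, Mt3 and Mt4 in Keap1-/- against wild type kept its direction under every alternative run, and its call under all of them but for Mt4 on the deposited ratios and on the processed signals. The rise of Mt1, Mt2 and Mt4 from P7 to adult kept its call and direction under every alternative in both genotypes. Where a call was gained or lost, or a sign turned, the value is given below. The values whose sign turned had not been called, and no call went with the turned sign. The cause was not tested. On the deposited ratios the changes were 3.37 for Mt4 from P0 to P7 (adjusted p = 0.02, now called), 0.49 for Mt3 from E11.5 to P7 (adjusted p = 0.0607, no longer called), 0.56 for Mt3 from P7 to adult in wild type (adjusted p = 0.0405, now called) and 2.83 for Mt4 in Keap1-/- less wild type (adjusted p = 0.101, no longer called). The sign turned at -0.06 for Mt4 from E15.5 to P0, 0.02 for Mt2 from P0 to P7, -0.1 for Mt3 from P0 to P7 and 0.08 for Mt3 in Nrf2-/- less wild type at P7. On the processed signals the changes were 3.34 for Mt4 from P0 to P7 (adjusted p = 0.0178, now called), 0.49 for Mt3 from E11.5 to P7 (adjusted p = 0.0615, no longer called), 0.56 for Mt3 from P7 to adult in wild type (adjusted p = 0.0415, now called) and 2.83 for Mt4 in Keap1-/- less wild type (adjusted p = 0.0956, no longer called). The sign turned at -0.12 for Mt4 from E15.5 to P0, 0.02 for Mt2 from P0 to P7, -0.1 for Mt3 from P0 to P7 and 0.08 for Mt3 in Nrf2-/- less wild type at P7. With median centring in place of loess the changes were 0.38 for Mt3 from E11.5 to P7 (adjusted p = 0.167, no longer called) and 0.79 for Mt3 from P7 to adult in Nrf2-/- (adjusted p = 0.0011, now called). The sign turned at -0.18 for Mt4 from E11.5 to E15.5, -0.18 for Mt3 from P0 to P7, -0.07 for Mt1 from E11.5 to P7, 0.05 for Mt3 in Nrf2-/- less wild type at P7, 0.06 for Mt1 in the double mutant less wild type, 0.1 for Mt2 in the double mutant less wild type, 0.35 for Mt1 in Nrf2-/- less wild type in adults, 0.51 for Mt3 in Nrf2-/- less wild type in adults, 0.34 for Mt4 in Nrf2-/- less wild type in adults and 0.46 for Mt3 in the age by Nrf2 interaction. Without outlier-marked spots the sign turned at 0.04 for Mt1 from P0 to P7. With Cy5 intensities alone the changes were 0.69 for Mt3 from E11.5 to P7 (adjusted p = 0.0711, no longer called) and 6.61 for Mt4 in the genotype interaction (adjusted p = 0.0214, now called). The sign turned at -0.18 for Mt4 from E15.5 to P0, 0.09 for Mt1 from P0 to P7, -0.02 for Mt3 in the double mutant less wild type, -0.05 for Mt1 in the double mutant less Nrf2-/- and -0.15 for Mt1 in the age by Nrf2 interaction. In a fit of all 27 arrays the changes were 0.4 for Mt3 from E15.5 to P0 (adjusted p = 0.0285, now called) and 3.43 for Mt4 in the genotype interaction (adjusted p = 0.0446, now called). In fits of the 2 groups compared the changes were 0.65 for Mt1 from E15.5 to P0 (adjusted p = 0.045, now called) and 2.18 for Mt4 from E11.5 to P7 (adjusted p = 0.0549, no longer called). With the slide as a block the sign turned at -0.02 for Mt3 from E11.5 to E15.5, -0.11 for Mt4 from E11.5 to E15.5, -0.06 for Mt1 in the double mutant less Nrf2-/-, -0.32 for Mt2 in the double mutant less Nrf2-/-, -0.01 for Mt3 in the double mutant less Nrf2-/- and -1.28 for Mt4 in the double mutant less Nrf2-/-. Without the embryo arrays that stand apart the sign turned at 0 for Mt4 from E15.5 to P0. With each spot's own local background the change was -1.12 for Mt2 in Nrf2-/- less wild type in adults (adjusted p = 0.0436, now called). The sign turned at -0.28 for Mt3 from P7 to adult in wild type, 0.46 for Mt3 in Nrf2-/- less wild type in adults, 0.05 for Mt4 in Nrf2-/- less wild type in adults, -0.07 for Mt1 in the age by Nrf2 interaction and 0.51 for Mt3 in the age by Nrf2 interaction. With scaling between arrays the change was -1.16 for Mt2 in Nrf2-/- less wild type in adults (adjusted p = 0.0376, now called). The sign turned at -0.01 for Mt3 in the double mutant less wild type, -0.08 for Mt3 from P7 to adult in Nrf2-/- and -0.2 for Mt4 in the age by Nrf2 interaction. With the scan day as a block the sign turned at 0.03 for Mt3 in Nrf2-/- less wild type in adults. With the brightest probe the sign turned at -0.21 for Mt1 in the age by Nrf2 interaction. With the slide as a random block the sign turned at -0.01 for Mt1 in the age by Nrf2 interaction. With 1 array left out in turn, the changes that turned their sign or their call ranged over -0.06 to 0.64 for Mt1 from E11.5 to P7, -0.64 to 0.06 for Mt1 from E11.5 to E15.5, -0.95 to 0.11 for Mt2 from E11.5 to E15.5, -0.07 to 0.16 for Mt4 from E15.5 to P0, -0.05 to 0.12 for Mt4 from E11.5 to E15.5, -0.04 to 0.07 for Mt3 from P0 to P7, -0.3 to 0.2 for Mt1 from P0 to P7, -0.36 to 0.33 for Mt2 from P0 to P7, 1.56 to 2.88 for Mt4 from P0 to P7, -0.1 to 0.01 for Mt3 in Nrf2-/- less wild type at P7, -0.49 to 0.01 for Mt1 in the double mutant less wild type, -0.68 to 0.01 for Mt2 in the double mutant less wild type, -1.51 to 0.7 for Mt4 in the double mutant less wild type, -0.03 to 0.13 for Mt1 in the double mutant less Nrf2-/-, -0.05 to 0.24 for Mt2 in the double mutant less Nrf2-/-, -0.39 to 1.82 for Mt4 in the double mutant less Nrf2-/-, 2.4 to 4.61 for Mt4 in the genotype interaction, -1.36 to -1.03 for Mt2 in Nrf2-/- less wild type in adults, -0.22 to 0.28 for Mt1 in the age by Nrf2 interaction and -0.11 to 0.02 for Mt3 in the age by Nrf2 interaction. The calls gained were Mt4 from P0 to P7 without wild-type P7 replicate 3, the Mt4 genotype interaction without Nrf2-/-Keap1-/- replicate 2 (adjusted p = 0.0374), and Mt2 in adults without Nrf2-/- adult replicate 1. Median centring moved the median of all genes by up to 0.453 (adults, Nrf2-/- less wild type) and by 0.243 in Keap1-/- less wild type.

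The number of all genes called moved by over 1.5 times in several comparisons, from 3930 to between 1740 and 5749 from E15.5 to P0, from 482 to between 209 and 1136 from P0 to P7, from 5996 to as few as 3801 from E11.5 to P7, from 7794 to as few as 4188 from P7 to adult in wild type, and from 2907 to as few as 1925 in the genotype interaction. From a main count of 82 it ran from 3 to 503 in the double mutant less wild type, from 81 it ran from 17 to 1689 in adults, from 18 from 5 to 1128 in the age by Nrf2 interaction, from 3 from 2 to 9 in Nrf2-/- at P7, from 0 up to 4 in the double mutant less Nrf2-/-, and from 0 up to 2740 between E11.5 and E15.5. The replicate number in the labels did not pair the samples: in 3 of 17 pairs of groups all same-numbered arrays deviated together at a correlation over 0.1, with a range of -0.45 to 0.64 over all. With the replicate block Mt4 in Keap1-/- less wild type was 4.22 (adjusted p = 0.0147), Mt2 in adults -1.22 (adjusted p = 0.159) and no member gained or lost a call, while the number of all genes called in adults went from 81 to 21 and in the double mutant less Nrf2-/- from 0 to 1.

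With 3 arrays a group, changes of Mt4 between the P7 genotypes other than Keap1-/- could not be told from its spread. Mt4 probe A_51_P424275 was well above background on 16 of 27 arrays.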

Other observations

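Of the 270 spots of the bright Mt1 probe, 139 (51.5%) carried an outlier mark of the image analysis software, as did 9 of 27 spots of the Mt2 probe. Without marked spots the Mt1 change from wild type to Keap1-/- was 2.34 (adjusted p = 4.96e-05, limma).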
